A study of Mus musculus with 68 samples.

Results

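The response of CAST fibroblasts to tunicamycin (TM) was described from 4 RNA-seq libraries of the 68 in the series. They are the 2 controls (replicates 1 and 3) and the 2 TM libraries (replicates 2 and 3) that the labels give to CAST/EiJ, a wild-derived inbred strain. All 13197 genes listed for the founder strains were considered. The cells were mouse embryonic fibroblasts (MEFs), grown from several female embryos of a litter that were pooled, and used at a low passage. TM cells had received 2 ug/ml of TM for 4 h and control cells 0.1% DMSO, the solvent. All libraries used here share the 4 h exposure. The other founder strains (129, A, B6, NOD, NZO, PWK and WSB, 36 libraries) and the xCAST cross (5 libraries, F1 cells of a B6 mother and a CAST father) were treated alike and serve only for comparison. The labels do not say that the replicates of a strain came from separate embryos. The paper describes a pooled cell mix per strain, treated in triplicate. P-values therefore measure the spread between these cultures or libraries, which may be technical. They cannot separate a strain from its cell preparation.

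TM blocks the first step of N-linked glycosylation, so that glycoproteins misfold in the endoplasmic reticulum (ER). Cells answer with the unfolded protein response (UPR), which has 3 sensors in the ER membrane. ATF6 is cut into a transcription factor that raises chaperones. IRE1 splices the Xbp1 mRNA, which then codes for an activator of chaperones and of ER-associated degradation, and it cuts some other mRNAs. PERK slows translation and favours ATF4, which raises amino acid genes and the stress factor CHOP, coded by Ddit3. Fibroblasts are also known to release chemokines when NF-kB is active.

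The CAST libraries held between 8751137 and 18672093 reads on genes, in a founder range of 7091923 to 21530282. Values are reads per gene scaled to a like library size and not divided by gene length, so levels of different genes are not compared. The listed fibroblast markers Col1a1, Vim and Fn1 had values from 5660 to 12362 in the 4 libraries. Thy1 had 1.38 to 2.80, Dcn 3.38 to 5.22 and Pdgfra 6.07 to 9.22, which are few reads. Of the 10 fibroblast markers none was called, and 9 were lower with TM (median -0.38). Their sum was 30691 and 33536 in the controls and 26890 and 26857 with TM, and without control replicate 3 there were 2 lowered markers. The summed value of 9 myeloid markers was 31.4 and 34.5 in the controls and 24.7 and 28.5 with TM, that of 5 epithelial markers 53.1 and 43.4 against 38.5 and 40.5, and that of 5 endothelial markers 3.42 and 3.13 against 7.24 and 6.25. An endothelial marker was at 0 in control replicate 3, and no other of these markers was at 0 in a CAST library. In such bulk samples fewer cells of a type and less RNA per cell cannot be told apart. The control libraries were further apart than the TM libraries. Among the 9832 genes with a mean value of at least 5, 440 differed by at least 1.5 fold between the 2 controls and 89 between the 2 TM libraries.

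TM changed 378 genes in CAST, most of them upwards. Of 12543 genes tested, 318 were induced (2.54%) and 60 were lowered (0.478%), by limma, where a call needed an adjusted p under 0.01 together with a 1.5 fold change. Across all genes tested the median difference was -0.02 on the log2(value + 0.1) scale, on which all fold changes are given. Induction was the larger effect as well as the more common one. Of the induced genes, 172 were past 2 fold and 43 past 4 fold, and of the lowered genes 24 and 4. Among the 318 induced genes, 14 had a control mean below 0.5 and 8 had 3 or fewer reads over both controls. Leaving out TM replicate 2 left 185 induced and 41 lowered genes, and leaving out TM replicate 3 left 329 and 143. Without control replicate 1 the counts were 697 and 329, and without control replicate 3 they were 902 and 509. Of the 318 induced genes, 162 were called in each of these 4 fits, and of the 60 lowered genes 22.

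**Figure D1:**
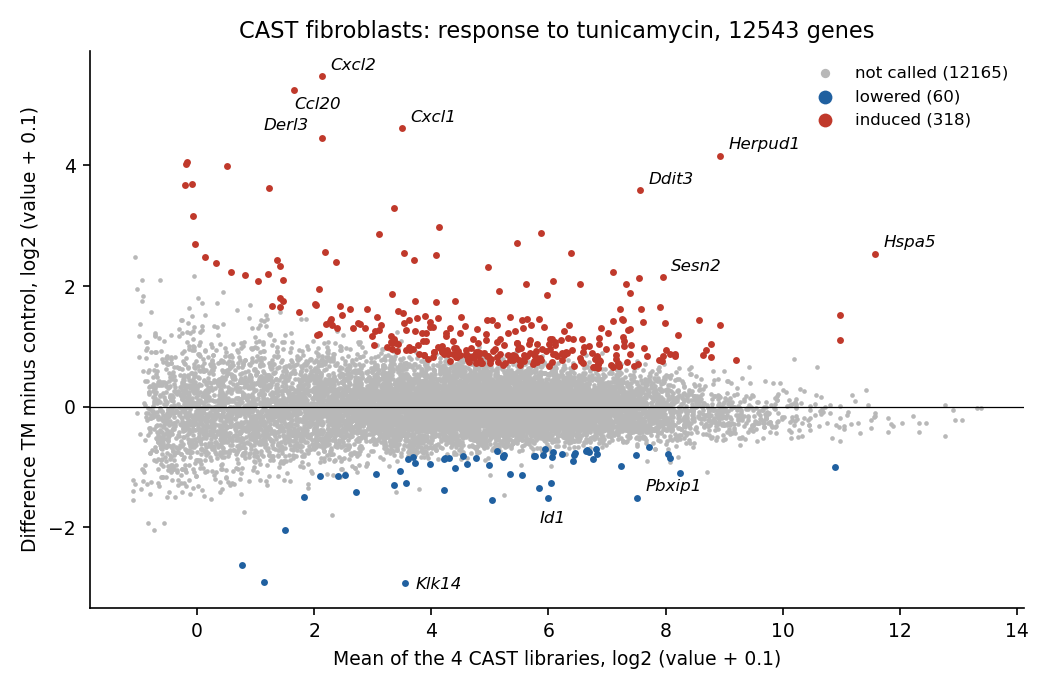
Each point is 1 of 12543 genes, with the mean of the 4 CAST libraries on the x axis and the difference between TM and control on the y axis, both as log2(value + 0.1). The 318 induced genes (red) reach higher than the 60 lowered genes (blue) reach down, and Hspa5 stands out among the genes of high value.

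Many UPR genes are known to share short control elements near their start, so these stretches are shown for 6 of the induced genes. Promoter windows from 250 bases before to 50 bases after the transcription start were taken from RefSeq on GRCm38.p6, which is the C57BL/6J sequence and not that of CAST. The search covered both strands and 4 lists, the ER chaperones, ER-associated degradation, the UPR factors, and the ATF4 and CHOP targets. Of their 30 induced members, 28 had a window and 14 of these held at least 1 of 6 motifs. The share of all windows that hold at least 1 of the 6 was not counted. The motifs were the ER stress element ERSE (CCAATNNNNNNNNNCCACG) and ERSE-II (ATTGGNCCACG), known to bind NF-Y with ATF6 or XBP1, the UPRE core (TGACGTGG), the CRE (TGACGTCA), the CARE of ATF4 with C/EBP proteins (TTGCATCA), and an NF-kB motif (GGGNNTTTCC). They overlap in part: ERSE and ERSE-II end in the same letters, which the UPRE core holds on the opposite strand, and the UPRE core and the CRE begin alike. The stretches below are those of the 6 genes with the largest fold among the 14, each read along the gene's strand, with the motif letters in capitals:

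Derl3, chr10:75893222-75893280, plus strand: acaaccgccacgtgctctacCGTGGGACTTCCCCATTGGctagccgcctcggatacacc
Herpud1, chr8:94386297-94386407, plus strand: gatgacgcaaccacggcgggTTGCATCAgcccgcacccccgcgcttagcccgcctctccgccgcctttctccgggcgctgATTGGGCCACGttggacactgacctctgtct
Fgf21, chr7:45615602-45615664, minus strand: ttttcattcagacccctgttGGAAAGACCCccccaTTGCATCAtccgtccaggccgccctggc
Atf3, chr1:191183416-191183463, minus strand: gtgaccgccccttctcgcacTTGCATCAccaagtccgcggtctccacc
Chac1, chr2:119351029-119351076, plus strand: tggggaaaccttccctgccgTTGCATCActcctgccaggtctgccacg
Hspa5, chr2:34772005-34772063, plus strand: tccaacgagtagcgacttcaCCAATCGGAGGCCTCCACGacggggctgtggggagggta

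Derl3 carried an ERSE on the opposite strand and Hspa5 an ERSE in the forward direction. Herpud1 carried an ERSE-II and a CARE, and Fgf21, Atf3 and Chac1 a CARE each, beside an NF-kB motif in Fgf21. Among the induced chaperone and degradation genes, 6 of the 12 with a window held an ERSE. It was found in 0.184% of the 9777 tested genes with a window and in 0.119% of all 32851 windows. Among the 14 induced ATF4 and CHOP targets 6 held a CARE, which was found in 0.736% of tested genes with a window and in 0.895% of all windows. Of all induced genes 74.8% had a window, and of these 3.78% held an ERSE and 4.2% a CARE. Of the 29 chaperone and degradation members not called, 21 had a window and 2 of these held an ERSE. Of the 7 ATF4 and CHOP targets not called, 4 had a window and none held a CARE. A match describes the reference letters and is not evidence of binding.

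Of 17 Hsp70 chaperones and co-factors of the ER, 8 were induced, 9 were not called and none was lowered, against 2.54% of all genes tested, and the list median was 0.75 log2. Each of the 8 was also called in every fit that left out 1 library. Hspa5 codes for BiP, the main Hsp70 of the ER, and lies at chr2:34771970-34777547 (GRCm38). Its values were 978 and 832 in the controls and 5318 and 5144 with TM, a fold change of 5.80 (log2 2.54, SE 0.13, adjusted p = 7.87e-06). The TM libraries lay close together and far above both controls. The J-domain co-chaperone Dnajb9, also called ERdj4, went from 14.7 and 13.1 to 116 and 91.3, which is 7.37 fold (log2 2.88, SE 0.15). Sdf2l1, which works with BiP and J-domain proteins, went from 11.6 and 11.7 to 71.5 and 82.2, or 6.53 fold (log2 2.71, SE 0.14). Smaller changes were those of Creld2 (4.099 fold), Hsp90b1, the ER form of Hsp90 (2.88 fold), the secreted factor Manf (2.70 fold), Dnajc3 (2.63 fold) and the nucleotide exchange factor Hyou1 (2.57 fold). The lectin chaperones, which bind the sugar that TM keeps from being added, did not pass. Calr had a difference of 0.66 (adjusted p = 0.0104) and Canx of 0.48 (adjusted p = 0.032). The 17 genes together took 0.536% and 0.456% of the signal in the controls and 1.44% and 1.37% with TM.

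Among 17 disulfide isomerases and Ero1 oxidases, which form and shuffle protein disulfide bonds, 5 were induced and none was lowered (median 0.29). That is 29.4% induced, against 2.54% of all genes tested. The oxidase Ero1lb went from 3.73 and 4.28 to 21.2 and 22.9, a 5.40 fold change (log2 2.43, SE 0.17, adjusted p = 3.13e-05). Pdia4 was at 205 and 203 in the controls and at 563 and 543 with TM (2.71 fold). Txndc11 (1.85 fold), Pdia6 (1.71 fold) and Ero1l (1.56 fold) were closer to the threshold. Without TM replicate 2 the count was 2, Ero1lb and Pdia4. Among members not called, the differences were 0.79 for Pdia3 (adjusted p = 0.013) and 0.29 for P4hb (adjusted p = 0.14).

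ER-associated degradation (ERAD) moves misfolded proteins back to the cytosol for the proteasome. Of its 26 members 6 were induced (23.1%, against 2.54% of all genes tested) and none was lowered. The median was 0.18, so the change was carried by few genes. Herpud1, which helps to assemble the ERAD complex, had the smallest adjusted p of all induced genes. Its values were 49.2 and 53.8 in the controls and 964 and 882 with TM, or 17.9 fold (log2 4.16, SE 0.12, adjusted p = 1.32e-07). Derl3, a channel component, was near 0 in the controls (0.311 and 0.247) and reached 6.81 and 9.76 with TM (21.9 fold, log2 4.45, SE 0.31). It had 9 reads over both controls and 242 over both TM libraries, so the size of its change is uncertain. Derl3 passed the filter (0.5 in 2 or more libraries) only through the TM libraries. Without the filter 5 members of the list were induced. The ubiquitin ligase Syvn1 and its partner Sel1l went up 4.40 and 3.15 fold. Edem1, which marks glycoproteins for degradation, went up 2.04 fold, and Derl2 1.77 fold. Edem1 and Derl2 are the smallest of the 6 changes, and 4 of the 6 genes were called without TM replicate 2 and without TM replicate 3. The cytosolic motor Vcp had a difference of -0.10 (adjusted p = 0.63).

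Among 15 UPR sensors and factors 2 were induced (13.3%, against 2.54% of all genes tested). Xbp1 had 94.7 and 101 in the controls and 252 and 225 with TM (2.43 fold, log2 1.28, SE 0.12, adjusted p = 0.00026). Atf4 had 305 and 271 against 594 and 590 (2.06 fold, log2 1.04, SE 0.12, adjusted p = 0.000834). Values per gene do not show the splicing of Xbp1 or the translation of Atf4. The 3 sensors were above the controls without passing the test, with differences of 0.65 for Eif2ak3 (PERK, adjusted p = 0.019), 0.60 for Ern1 (IRE1, adjusted p = 0.023) and 0.50 for Atf6 (adjusted p = 0.048). Without control replicate 3 the count was 7.

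The list with the largest induced share was that of ATF4 and CHOP targets, with 14 of 21 induced. The share was 66.7%, against 2.54% of all genes tested. None was lowered and the median was 1.05. Ddit3 itself went from 32.2 and 26.1 to 332 and 367, a 12.01 fold change (log2 3.59, SE 0.14, adjusted p = 1.12e-06). The stress factor Atf3 went from 2.07 and 1.57 to 19.1 and 17.9 (9.78 fold, log2 3.29, SE 0.20). Gadd45a, a growth arrest gene, went from 4.92 and 2.97 to 32.7 and 28.9 (7.85 fold, log2 2.97, SE 0.22). In these 3 genes both TM libraries were several times above both controls. Chac1, which degrades glutathione, went up 5.82 fold and the pseudokinase Trib3 4.70 fold. Ppp1r15a, the GADD34 subunit that restores translation, went up 3.07 fold (74.0 and 72.4 against 220 and 229). The hormone Fgf21 had 0 reads in either control and 18 and 22 with TM. This is at least 15.2-fold higher when 3 reads over both controls are taken as the floor. Fgf21 passed the filter only through the TM libraries, and without the filter 9 members of this list were induced. Sesn2, a stress-induced regulator of mTORC1, is described further below. Of the members not called, Ddit4 (0.06), Cebpb (0.06), Ndrg1 (0.00) and Atf5 (-0.21) had small differences. Without TM replicate 2 the count was 10 and without TM replicate 3 it was 11.

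Amino acid supply genes, which ATF4 is known to control, were induced in part. Of 16 genes of amino acid and one-carbon synthesis 4 were induced, with a median of 0.47, and without TM replicate 2 only 1 of them, Cth, was called, while without control replicate 1 the count was 7. Asns, asparagine synthetase, went from 117 and 118 to 229 and 204 (1.84 fold, SE 0.12 log2, adjusted p = 0.00239). Cth, of cysteine synthesis, went up 1.97 fold, the mitochondrial folate enzyme Aldh1l2 1.90 fold and the transaminase Gpt2 1.88 fold. In serine synthesis the difference was 0.74 for Psph (adjusted p = 0.014) and -0.02 for Phgdh (adjusted p = 0.92). Of 12 amino acid transporters 6 were induced, with a median of 0.73. The cystine carrier Slc7a11 went from 12.8 and 17.1 to 60.2 and 52.3 (3.76 fold, log2 1.91, SE 0.16), and its heavy chain partner Slc3a2 from 296 and 271 to 516 and 509 (1.81 fold). Slc1a4 went up 2.19 fold, the glycine carrier Slc6a9 2.07 fold, and the cationic carriers Slc7a1 and Slc7a3 1.84 and 1.80 fold. Among 20 cytosolic tRNA synthetases only Wars was induced (87.9 and 87.1 against 146 and 151, 1.70 fold). That is 5.0%, near the 2.54% of all genes tested. Of the 20, 15 were higher with TM, against 47.2% of all genes tested. Wars was not called without either TM library, and without control replicate 1 the count was 3.

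In 3 other lists of the secretory pathway, taken in turn below, 6.45%, 4.55% and 3.13% of members were induced, against 2.54% of all genes tested. Of 31 genes of N-glycosylation and hexosamine synthesis 2 were induced, Alg2 (5.33 and 5.19 against 11.9 and 9.76) and Magt1 (40.8 and 42.8 against 78.8 and 68.5), and neither was called without TM replicate 2. Dpagt1, the enzyme that TM inhibits, had a difference of 0.42 (adjusted p = 0.083). Of 22 translocon and signal peptide genes tested, Spcs3 was induced (1.78 fold). Of 32 genes of COPII and COPI vesicles, Uso1 was induced (1.64 fold). The counts of both lists were 0 without TM replicate 2. They were larger without a control, with 5 and 6 glycosylation genes induced without control replicates 1 and 3, 4 translocon genes without control replicate 1, and 2 and 4 vesicle genes without control replicates 1 and 3. The medians of these 3 lists were 0.20, 0.18 and 0.18, and of their members 26 of 31, 19 of 22 and 24 of 32 were higher with TM, against 47.2% of all genes tested.

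**Figure D2:**
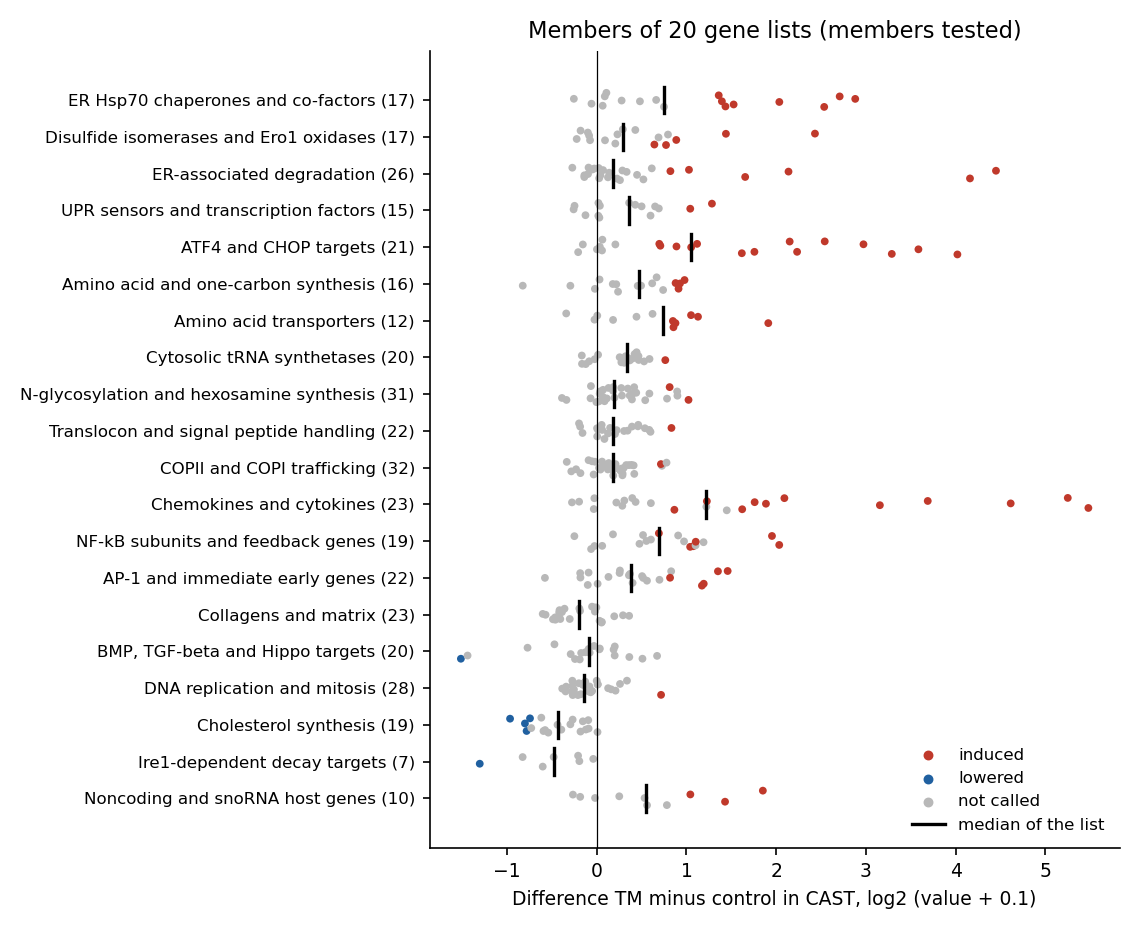
Each point is a tested member of 1 of 20 gene lists, placed by its difference between TM and control in CAST on the log2(value + 0.1) scale, with the vertical position within a list drawn at random. The black bar is the median of the list. With the filter used it was highest for chemokines and cytokines (1.22) and for ATF4 and CHOP targets (1.05). It was lowest for targets of IRE1-dependent decay (-0.48). The order of these highest medians was reversed without the filter (0.79 and 1.05) and with the pseudocount 1 (0.90 and 1.03).

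Genes of inflammation were among the most strongly induced in CAST. Of 23 chemokines, cytokines and growth factors tested, 11 were induced (47.8%, against 2.54% of all genes tested). None was lowered and the median was 1.22. Genes such as Cxcl2 and Ccl20 passed the filter only through the TM libraries. Without the filter the median of the list was 0.79 and 8 members were induced. Cxcl1, a neutrophil chemokine at chr5:90891241-90893115, went from 0.829 and 0.741 to 20.2 and 23.0, or 24.5 fold (log2 4.62, SE 0.21, adjusted p = 3.19e-06). Its relative Cxcl2 had 3 reads over both controls and 234 over both TM libraries, a ratio of 88.8 (95% exact interval 30.0 to 434, counting error only). Ccl20 had 3 and 161 reads, a ratio of 61.1 (20.5 to 299). These genes were near the limit of detection in control cells, and their size of change is known only within these limits. Csf2 (1 and 47 reads, ratio 53.5, 9.15 to 2158) and Tnf (3 and 46 reads, ratio 17.5, 5.61 to 87.8) were induced as well at low values. Further genes had clear control signal. The monocyte chemokine Ccl2 went from 59.8 and 84.3 to 255 and 270 (3.70 fold, SE 0.16 log2), Cxcl5 from 27.2 and 24.1 to 121 and 99.1 (4.26 fold, SE 0.14), and the cytokine Lif from 79.4 and 109 to 290 and 283 (3.08 fold, SE 0.15). Il6 had a difference of 1.45 without passing (adjusted p = 0.013), and Cxcl12, a chemokine that fibroblasts make without stimulus, one of -0.03. Without TM replicate 2 the count was 6.

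Of 19 NF-kB subunits and feedback genes 6 were induced (31.6%, against 2.54% of all genes tested), with a median of 0.69. The inhibitors of NF-kB responded along with a subunit. Tnfaip3, the A20 inhibitor, went from 34.0 and 38.7 to 140 and 158 (4.096 fold, log2 2.03, SE 0.13, adjusted p = 2.16e-05), and Nfkbia, which codes for IkB-alpha, from 33.9 and 32.2 to 65.2 and 71.2 (2.06 fold). The subunit Relb went up 2.11 fold, the adhesion molecule Vcam1 2.15 fold and the adaptor Traf1 3.87 fold. Of the other subunits, Nfkb1 (0.55, adjusted p = 0.022) and Nfkb2 (0.48, adjusted p = 0.031) did not pass, and Rela had a difference of 0.18. Without control replicate 3 the count was 11. Of 22 AP-1 and immediate early genes 5 were induced, the zinc finger factors Egr1 (77.3 and 85.3 against 235 and 212, 2.75 fold), Egr2 (2.55 fold), Egr3 (2.25 fold) and Klf6 (1.76 fold), and Myc (174 and 188 against 431 and 397, 2.28 fold). The induced share of these 22 genes was 22.7%, against 2.54% of all genes tested. Fos (0.25) and Jun (0.13) did not pass. Without control replicate 3 the count was 9. The myeloid marker sum was lower with TM, as given above, and its part in these results was not tested.

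The 12 induced genes of largest fold, among those with a mean value of at least 5 and groups that did not overlap, included Hey2 and Plcxd2, which are in none of these lists. Hey2, a repressor downstream of Notch signalling, went from 2.07 and 1.89 to 14.5 and 15.7 (7.29 fold, log2 2.87, SE 0.19). Plcxd2, a phospholipase-like gene, went from 3.47 and 6.75 to 30.1 and 26.6 (5.74 fold, log2 2.52, SE 0.26). Also among the 12 were Cxcl1, Herpud1, Ddit3, Atf3, Gadd45a, Dnajb9, Sdf2l1, Chac1 and Hspa5.

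Of 10 noncoding genes tested, among them hosts of small nucleolar RNAs, 3 were induced (median 0.55). That is 30.0%, against 2.54% of all genes tested. Without control replicate 1 the count was 6, and it was 5 without control replicate 3 and 5 without TM replicate 2. Snhg12 went from 29.1 and 25.7 to 92.4 and 106 (3.61 fold, log2 1.85, SE 0.13, adjusted p = 4.55e-05), Snhg17 from 17.3 and 18.2 to 49.1 and 46.9 (2.69 fold) and 2410006H16Rik from 42.7 and 41.2 to 78.8 and 95.1 (2.06 fold). Snhg3 had a difference of -0.02. Of genes that the study names, Arid5a (3.52 and 3.62 against 10.5 and 11.7), an RNA-binding factor of cytokine mRNAs, Mex3b (18.0 and 24.5 against 63.6 and 55.4), another RNA-binding gene, and Cdyl (22.3 and 19.4 against 37.6 and 39.3), which codes for a chromatin protein, were induced. Cpox, of heme synthesis and also named there, went from 28.4 and 29.4 to 77.7 and 71.3 (2.57 fold).

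**Figure D3:**
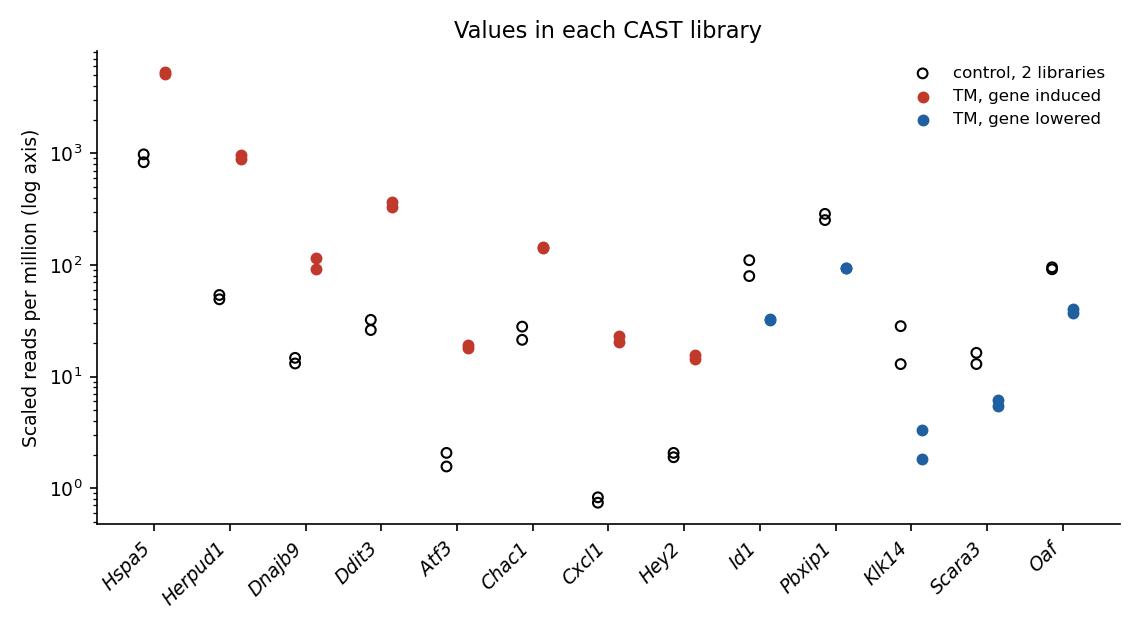
Values of 13 genes in each CAST library on a log axis, with open circles for the 2 controls and filled circles for the 2 TM libraries. The genes were chosen from called genes whose groups do not overlap, so both TM libraries lie beyond both controls by choice. Groups did not overlap in 61.0% of all genes tested. The controls are furthest apart in Klk14 (28.3 and 12.9).

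Lowered genes were fewer and their changes smaller, with a median of 1.85 fold against 2.06 fold for the induced genes. Klk14, a secreted serine protease, had the largest change of the named ones, from 28.3 and 12.9 to 3.30 and 1.81 (7.55 fold lower, log2 -2.92, SE 0.36, adjusted p = 0.00133). Its direction was not shared by all strains. Klk14 was also lower with TM in 129, A and B6, but higher in NOD (5.20 fold), NZO (1.88 fold), WSB (1.81 fold) and PWK (1.42 fold). In the fit over 40 libraries the SE of its difference from the other strains was 2.10 log2. Id1, an inhibitor of differentiation factors that BMP signals raise, went from 110 and 79.4 to 33.1 and 32.2 (2.86 fold lower, log2 -1.52, SE 0.16, adjusted p = 0.000523). Pbxip1, a partner of PBX homeobox factors, went from 287 and 252 to 94.8 and 94.4 (2.84 fold lower, log2 -1.51, SE 0.12, adjusted p = 0.000103). Ier5l (50.3 and 46.8 against 18.95 and 14.4), the glycosyltransferase Pomgnt2 (8.29 and 10.7 against 3.41 and 3.57), the ER-phagy receptor Retreg3 (24.6 and 28.7 against 10.2 and 10.1) and the hyaluronan gene Cemip2 (75.1 and 89.9 against 30.4 and 34.3) were lowered by between 2.54 and 2.93 fold. Oaf (2.42 fold), Tmem121 (2.21 fold) and the neuronal early gene Npas4 (2.20 fold) complete the 12 with Scara3 and Hspa1b. Hspa1b, a heat shock Hsp70 of the cytosol, was 2.41 fold lower (17.0 and 16.5 against 6.39 and 7.41), but it has a near-identical copy, Hspa1a, with which reads can be exchanged, so its value is uncertain.

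Cholesterol genes were the list with the most lowered members, 4 of 19, none induced, against 0.478% of all genes tested. Of the 19, 18 were lower with TM (median -0.44). None of the 4 calls held without the filter or without the variance trend. Dhcr7, of the last steps of the pathway, went from 34.8 and 49.8 to 20.02 and 22.5 (1.96 fold lower). Insig1, which retains the SREBP regulator in the ER, went from 83.0 and 85.2 to 52.8 and 47.6 (1.68 fold lower). Only 1 of the 4 was called without TM replicate 2 and 2 without TM replicate 3, while 8 members were called without control replicate 1. Of 7 targets of IRE1-dependent decay, Scara3 was lowered (12.9 and 16.3 against 6.18 and 5.49, 2.47 fold). This call did not hold without the filter or without the variance trend. All 7 were lower with TM, and Bloc1s1, the best known of them, had a difference of -0.83 that did not pass (adjusted p = 0.022). Without control replicate 1, without control replicate 3 and without TM replicate 3 the count was 2.

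Several groups held 1 called gene or none, against 2.54% of all genes tested induced and 0.478% lowered. None of 23 collagens and matrix genes was called, with a median of -0.19 and values of -0.49 for Col1a1 (adjusted p = 0.039) and -0.57 for Col3a1 (adjusted p = 0.017). Without control replicate 1 there were 2 lowered genes and without control replicate 3 there was 1. Of 20 targets of BMP, TGF-beta and the Hippo pathway, Id1 was the 1 called, and Id3 (-0.29) and Ccn2 (0.03) did not pass. There were 2 lowered genes in this list without either control and without TM replicate 2. Of 28 genes of DNA replication and mitosis, Cdc6, which licenses replication origins, was induced (21.2 and 19.9 against 33.3 and 34.3, 1.64 fold), but not without either TM library, and Mki67 (0.16), Pcna (-0.09) and Ccnd1 (-0.20) did not pass. Among the other cell type markers the 1 call was Kdr, an endothelial receptor, with 32 reads over both controls and 95 over both TM libraries (0.880 and 1.24 against 4.05 and 3.13, 3.20 fold, adjusted p = 0.00805). Of the other 2 endothelial markers tested, Tek had a difference of 0.84 (adjusted p = 0.16) and Pecam1 of -0.12 (adjusted p = 0.87). Kdr was not called without TM replicate 2 (adjusted p = 0.022).

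To see how far the CAST response was shared, the called genes were read in samples that the CAST fit did not use. In xCAST cells, which carry a CAST genome from the father, 314 of the 318 induced genes were listed. All 314 were higher with TM there, against 46.4% of all genes tested. By at least 1.5 fold it was 264 (84.1%), against 7.91% of all genes tested. All 60 lowered genes were lower in xCAST, against 53.6% of all genes tested. By at least 1.5 fold it was 53 of them (88.3%), against 9.83% of all genes tested. In the other founder strains 292 of the 318 induced genes were higher with TM in each of the 7 strains, and 172 by at least 1.5 fold in each. Of all genes tested, 21.3% were higher in each of the 7 and 2.14% by at least 1.5 fold in each. Of the 60 lowered genes, 57 were lower in each of the 7 strains, against 22.4% of all genes tested. There were 8 induced and 2 lowered genes that reached 1.5 fold in no other founder strain. The same share over all genes tested was not counted. All of these counts are of estimates and are not tests of a difference.

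The difference between CAST and the mean response of the other 7 founder strains was tested in 1 fit over the 40 founder libraries. Strain and cell preparation cannot be told apart in it. Of 13197 genes, 1 responded more in CAST (0.00758%) and 1 less (0.00758%), both past an adjusted p of 0.01 and a 1.5 fold difference. Of the 24 lists, that of ATF4 and CHOP targets held 1 call, Sesn2, and the others none. The chaperone list had a median difference of -0.17, with 1 of 17 members higher in CAST, the ERAD list -0.07 and the chemokine list -0.06. Other lists had medians above 0, such as UPR sensors and factors (0.09, 11 of 15 higher in CAST) and amino acid transporters (0.06, 8 of 12). The share of all genes higher in CAST was not counted, and these medians were not tested. The median standard error of a difference was 0.27, which limits what could be detected. At an unadjusted p below 0.05 there were 266 genes.

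Sesn2, at chr4:132492032-132510501, was the gene with the stronger response. In CAST it went from 84.9 and 97.6 in the controls to 403 and 406 with TM, a fold change of 4.44 (log2 2.15, SE 0.12, adjusted p = 1.21e-05). The control level was 91.2 ± 8.999 (SD, n = 2), within the 70.1 to 111 of the control means of the other strains. In WSB, the next strain, Sesn2 went up 2.76 fold, to a TM mean of 306 ± 20.6 (SD, n = 3), and no WSB library reached the CAST values. The other folds were 2.35 in NZO, 2.06 in PWK, 2.02 in NOD, 1.79 in A, 1.69 in 129 and 1.59 in B6, and the neighbours in this order were not tested against each other. The response in CAST exceeded the mean of the 7 others by 1.15 log2 (SE 0.16, adjusted p = 0.000569), a ratio of folds of 2.21. Without control replicate 1 of CAST the adjusted p was 0.069, without TM replicate 2 it was 0.02 and without TM replicate 3 it was 0.028, with differences between 1.05 and 1.15. In xCAST, scaled apart from the founders, the values were 85.8 and 82.6 in the controls and 307, 248.97 and 275 with TM (3.28 fold), between the folds of its parents.

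Apobec1, a cytidine deaminase that edits RNA, at chr6:122577792-122602444, was the gene with the weaker response. In CAST it had 1.398 and 1.32 in the controls and 1.81 and 1.48 with TM, a difference of 0.25 (SE 0.30, adjusted p = 0.6) on 43 and 44 reads. In the other 7 strains the TM means were between 4.14 and 7.64 and the folds between 2.29 in NZO and 4.21 in NOD. No TM library of another founder strain was below 3.996. The difference from the mean of the 7 others was -1.45 (SE 0.23, adjusted p = 0.00335). Its control level in CAST (1.36 ± 0.0569, SD, n = 2) lay between the strain means of 1.19 in 129 and 2.67 in PWK. In xCAST the values were 1.45 and 1.01 in the controls and 3.69, 3.71 and 2.26 with TM (2.48 fold). The call did not hold without any 1 of the 4 CAST libraries (adjusted p = 0.02 to 0.15), with the same direction in each case.

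**Figure D4:**
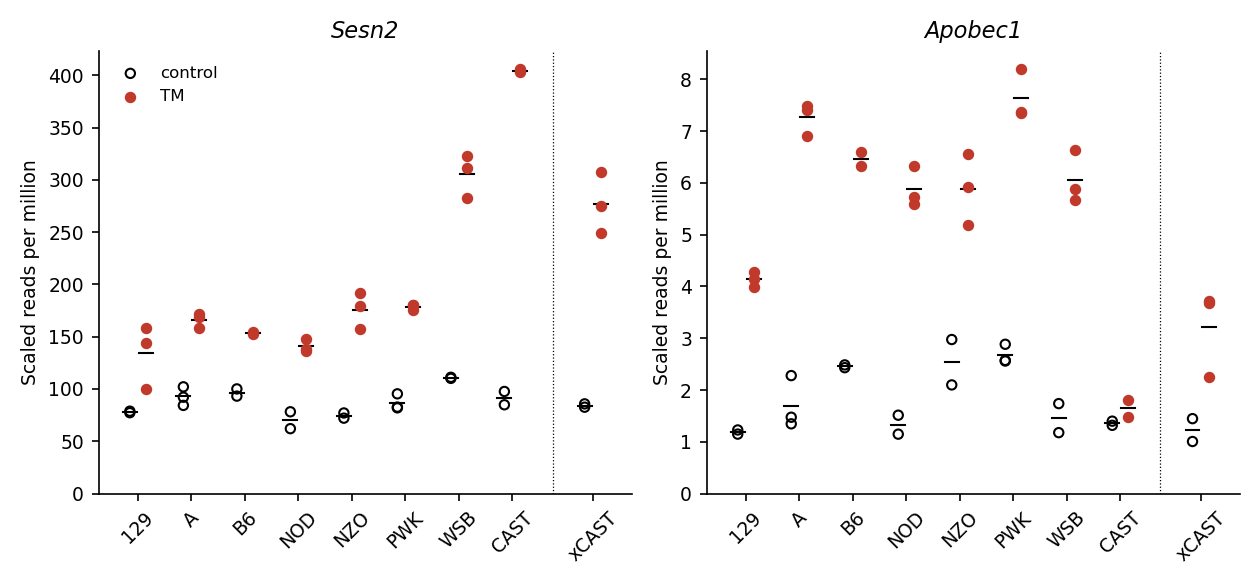
Values of Sesn2 (left) and Apobec1 (right) in every founder library and, right of the dotted line, in xCAST, whose values were scaled separately. Open circles are controls, filled circles TM libraries and bars group means. The CAST TM libraries are the highest for Sesn2 (403 and 406) and the lowest TM libraries for Apobec1 (1.81 and 1.48).

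Against B6 alone, the other parent of xCAST, the interaction of strain and treatment was tested over 8 libraries. Of 12962 genes, Sesn2 was again the 1 called higher in CAST (0.00771%), with a difference of 1.48 (SE 0.13, adjusted p = 0.000978) and a ratio of folds of 2.79. No gene was called lower, with 1055 genes at an unadjusted p below 0.05 in both directions together and 0 lower by edgeR. Without the variance trend the adjusted p of Sesn2 was 0.16. The next adjusted p was 0.088. Both comparisons use the same CAST libraries, so the second is not independent of the first. Leaving out control replicate 3 of CAST gave 220 genes higher and 91 lower, and leaving out any 1 of the 4 B6 libraries or of the 2 CAST TM libraries gave none in either direction.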

How the data were processed

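RNA was sequenced as single-end reads. The authors aligned reads with TopHat 1.4.1 to a genome built for each strain (GRCm38), applied TMM from edgeR, dropped libraries that stood apart from their group and applied TMM anew. Spread is therefore known only for the libraries kept. The deposited signal is named FPKM by the authors, and tests suited to FPKM had been planned. Each value, though, is a whole multiple (within 0.001 of a step) of 1 step per library, for 100% of values in each CAST library, which makes it a scaled read number with no length correction. Whole reads were recovered for 38 of 40 founder libraries. Founder and F1 tables were scaled apart, and 3 lines of unassigned reads (15.5% to 19.5% of the xCAST signal) were left out. Names came from an annotation for 13023 of 13197 genes. Promoters came from RefSeq.

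TM was compared with control on log2(value + 0.1) with limma 3.58.1 (eBayes with trend, R 4.3.3), keeping genes that reached 0.5 in 2 or more libraries fitted. Calls needed a Benjamini-Hochberg adjusted p below 0.01 over all genes tested and 1.5 fold. The CAST fit has 2 residual degrees of freedom per gene. Differences between strains were contrasts in 1 fit over 40 libraries, or over the 8 of CAST and B6. edgeR 4.0.16 quasi-likelihood on recovered reads called 355 and 61 genes. Scripts ran in Python 3.11.15 and were tested on simulated counts. Depth limits low genes, and intervals from reads cover counting error only.

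Alternatives were the pseudocount 1, unfiltered genes, a filter on a mean of 2, scaling by median of ratios, variance without trend, a 0.05 threshold, the replicate number as a block, 1 fit over 40 libraries, and leaving out each library or strain. Genes named are the 12 induced and 12 lowered with the largest fold among called genes with a mean value of at least 5 and groups that do not overlap, in each of 24 lists up to 6 called members and 2 others of highest value, the called genes of the strain comparisons (at most 10 or 5 in each direction), and genes that the study names. Names beyond that rule were chosen after values were seen. The members, lists and tests were chosen with earlier results of these data known. Of 449 list entries 16 were not listed in the founder tables. Some genes that the rule names are not reported here.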

Additional observations from a re-analysis of the deposited data

Results flagged for a closer look

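Sesn2 and Apobec1 are given here because their response differed between strains in a test of the difference itself. Sesn2 responded more in CAST than in the mean of the other 7 founder strains (1.15 log2) and than in B6 (1.48 log2). Apobec1 responded less in CAST than in the mean of the other 7 strains (-1.45 log2). With 2 libraries per group, single CAST libraries could not be tested for standing apart.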

How the results depend on the processing

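For CAST TM against control, 318 genes were higher and 60 lower. Without the filter these were 97 and 10, without the variance trend 28 and 0 (edgeR called 355 and 61, and 3874 genes had an unadjusted p below 0.05), and at an adjusted p below 0.05 they were 695 and 325. Leaving out 1 library gave 185 to 902 higher and 41 to 509 lower, with the lone sample assumed to vary like the other group. Without control replicate 1, 317 of the 318 induced genes were still called, without TM replicate 2 it was 168. The cause of these moves was not tested. No gene that is both named and called changed direction. Genes not called and near 0 did when 1 library was left out, such as Fn1 (-0.30 to 0.26) and Vcp (-0.21 to 0.02).

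For CAST against the mean of the other 7 strains (1 higher, 1 lower), the pseudocount 1 gave 2 higher, and edgeR 0 lower. Leaving out strain 129, NOD or PWK gave 0 lower, strain A 3 and NZO 2, and a 0.05 threshold 3. Leaving out a CAST library gave 0 to 1 higher and 0 lower. Against B6 (1 higher, 0 lower) there was none higher, a count of 0, without the trend and with the replicate block (Sesn2 adjusted p = 0.16 and 0.46), and leaving out 1 library gave 0 to 220 higher and 0 to 91 lower.

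No paired analysis was possible because the CAST groups share only replicate number 3 when fitted alone. In the 40-library fit the replicate block moved the CAST counts from 224 and 52 to 231 and 62, and left 1 higher and 1 lower against the other strains. Of 16 same-numbered founder pairs 3 had deviations correlated above 0.1, so the numbers were not taken to pair samples. Low read numbers limit genes such as Apobec1, with 43 control and 44 TM reads.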

Other observations

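Genes whose symbols begin with Zfp, which code for zinc finger proteins, were looked at after their values were seen. Of 318 tested in CAST, 26 were induced (8.18%, against 2.54% of all genes tested) and 1 was lowered (0.478% of all genes tested), with a median of 0.43 log2 and folds of 1.67 to 3.15 among the induced ones. Clec4e, a C-type lectin receptor known from myeloid cells, had 2 reads over both controls and 65 over both TM libraries, a ratio of 37.0 (95% exact interval 9.84 to 312, counting error only), while the summed myeloid markers were lower with TM.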
